A study of Mus musculus with 6 samples.

Results

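The motile cilium axoneme is the microtubule shaft of the beating cilia that line the airways. The group described here holds 52 genes for its parts and for proteins that build or accompany it. They were chosen by symbol, synonyms accepted, and all 52 were found among the 27179 genes of the count table. Dnai1 and Dnai2 were matched through synonyms. Messenger RNA was measured in EpCAM-positive cells sorted from mouse lungs at embryonic stage E16.5. Control samples were Shh-Cre;Grhl2f/+ (n = 3, replicates 1, 3 and 7), with 1 floxed and 1 intact allele of Grhl2, the gene of the epithelial transcription factor grainyhead-like 2. Knockout samples, named Grhl2_cKO, were Shh-Cre;Grhl2f/- (n = 3, replicates 1, 5 and 10), with 1 floxed allele and 1 null allele. Every sample carried Shh-Cre, which drives recombination from the Sonic hedgehog gene in lung epithelium, so a control cell in which Cre acted keeps a single Grhl2 allele. Control replicate 7 and Grhl2_cKO replicate 1 were female and the other 4 samples were male. The labels do not say whether a sample is 1 embryo, so a p-value here reflects only how much these samples vary.

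In a motile cilium, a ring of microtubule doublets surrounds a central pair of microtubules. Outer and inner dynein arms on the doublets are the motors. They are assembled in the cytoplasm by dedicated factors and docked at fixed spacing by molecular rulers. Radial spokes and the central pair regulate the motors, nexin links tie neighbouring doublets, and tektins and other proteins line the inside of the doublet wall. In the lung these genes are known as products of multiciliated airway cells, where FOXJ1 and RFX factors drive them.

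Total counts were 13472216 to 17228762 per library. Grhl2 was lower in each Grhl2_cKO library (149.2, 147.9 and 146.0 CPM in controls and 105.3, 109.2 and 115.3 CPM in Grhl2_cKO; log2 fold change -0.43 ± 0.06 SE, n = 3 per group; edgeR adjusted p = 0.0026). CPM, the usual per-library abundance of a gene's counts, was computed on normalized library sizes, and library values are given throughout in the order control replicates 1, 3 and 7 and Grhl2_cKO replicates 1, 5 and 10. Epcam, the gene of the sorted surface protein, stood at 558.7, 543.6 and 501.4 against 335.1, 346.2 and 402.7 CPM (edgeR adjusted p = 0.00412). The 6 epithelial markers, Epcam among them, summed to 2534, 2084 and 2079 CPM in controls and 1702, 1620 and 1965 CPM in Grhl2_cKO. These groups did not overlap, the Grhl2_cKO mean was 79.0% of the control mean, and 1 of the 6 genes was called. Over the 6 libraries, marker sums were 894.5 to 1792 CPM for 10 mesenchymal genes, 151.3 to 224.4 CPM for 8 endothelial genes and 21.3 to 48.1 CPM for 8 blood and immune genes. Heart muscle markers, 12 genes, summed to 456.8 CPM in Grhl2_cKO replicate 1 and to 173.9 to 233.9 CPM in the other 5 libraries, with Myl2 at 0 in all 6 libraries. The part of these differences in the results below was not tested, beyond the fits without that library.

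Axoneme genes of every structural class fell in Grhl2_cKO in at least 1 member, except the class of accompanying proteins. Of the 52, 47 had enough counts to be tested, 24 fell and none rose (threshold 0.05 on the edgeR quasi-likelihood p, adjusted by Benjamini-Hochberg over 14842 genes). Among all genes tested 2.39% were called lower and 1.23% higher, against 51.1% lower among these 47. The median log2 fold change was -1.23, or 42.6% of control, against 0.00 over all genes tested, and 46 of 47 lay below 0. CPM of the groups did not overlap, with Grhl2_cKO lower, for 36 of 47, or 76.6%, against 9.89% of all genes tested. The 52 genes were chosen with earlier results of these data known, so these shares describe the list and are not independent support. In bulk counts, fewer ciliated cells and less of these transcripts per cell cannot be told apart.

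**Figure D1:**
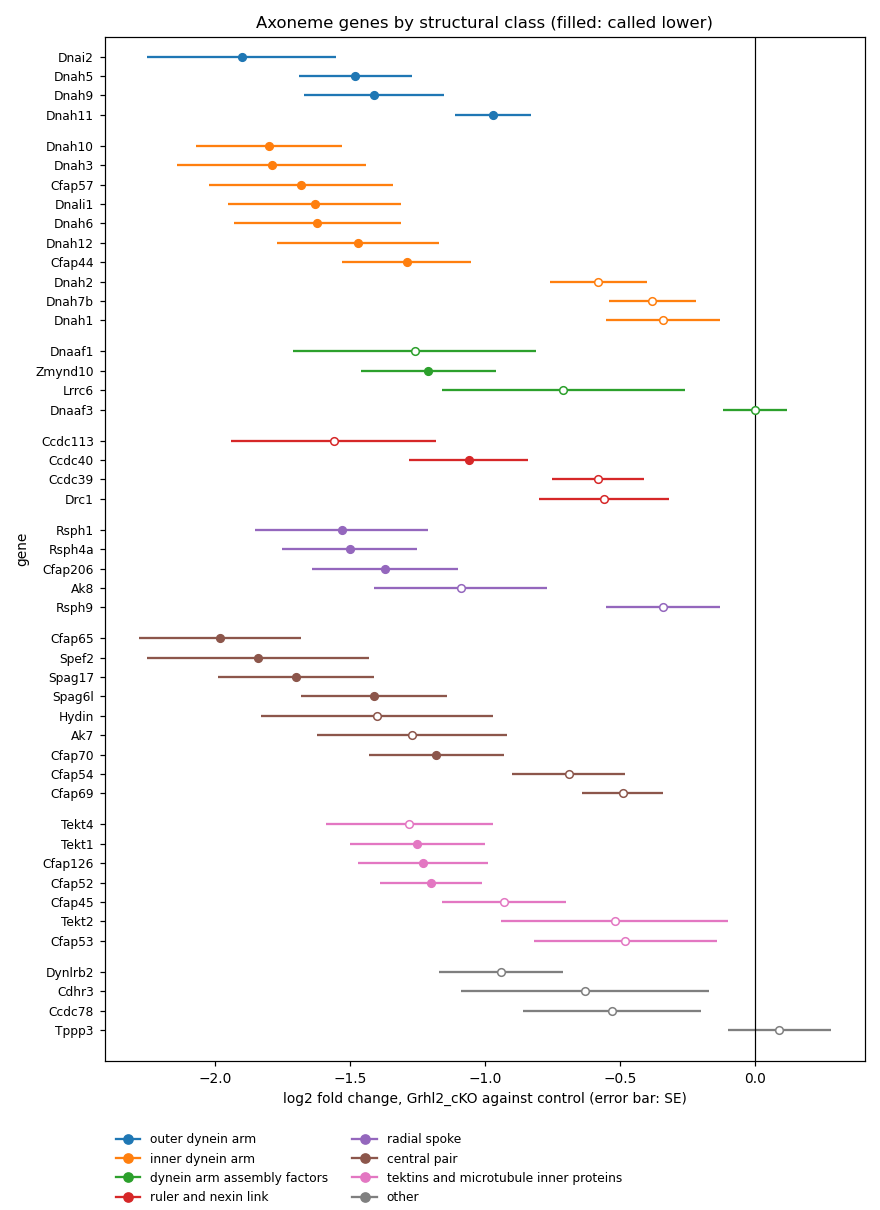
Log2 fold change of the 47 axoneme genes tested, with its standard error, by structural class (3 samples per group). Filled points are the 24 genes called lower, and the points reach from -1.98 for Cfap65 to 0.09 for Tppp3.

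The axoneme genes were a small part of each library. Their summed level was 394.8, 270.7 and 268.5 CPM in controls and 198.1, 145.8 and 145.3 CPM in Grhl2_cKO, so the groups did not overlap and the Grhl2_cKO mean was 52.4% of the control mean. Control replicate 1 stood above the other controls, with the highest control value for 46 of 47 genes, where it was highest for 37.9% of all genes tested. Grhl2_cKO replicate 1 was in turn the highest knockout library for 42 of 47, against 32.0% of all genes tested. The median level relative to the control mean was 130.0%, 87.0% and 83.2% in controls and 54.5%, 35.1% and 40.5% in Grhl2_cKO. Without control replicate 1 the median log2 fold change was -0.97 with 18 genes called, and without Grhl2_cKO replicate 1 it was -1.47 with 25 called. The number called was 15 without control replicate 3, 7 without Grhl2_cKO replicate 5 and 6 without Grhl2_cKO replicate 10, while the medians stayed at -1.32, -1.08 and -1.18. Cfap52, Cfap65, Dnah5, Dnah10, Dnah11 and Spag17 were called in each of 16 alternative fits.

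**Figure D2:**
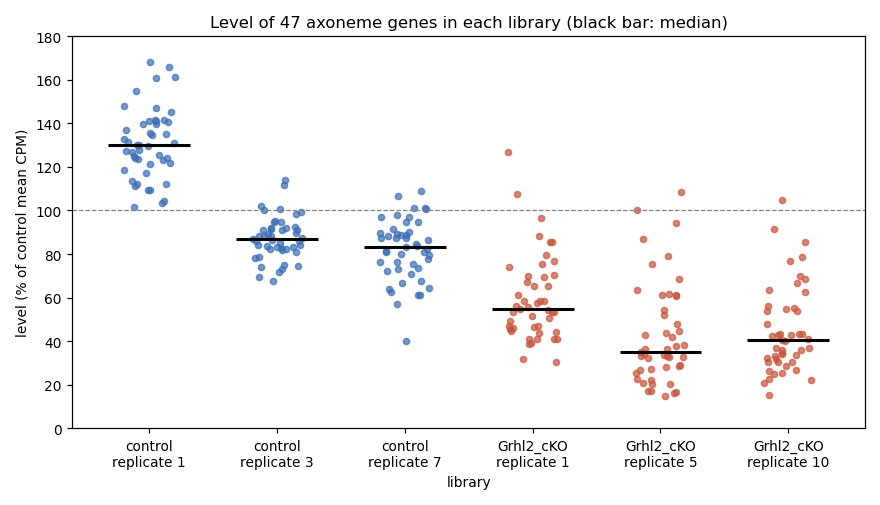
Level of each of the 47 genes in each library, as a percent of that gene's control mean CPM, with the median as a black bar. Medians are 130.0%, 87.0% and 83.2% in controls and 54.5%, 35.1% and 40.5% in Grhl2_cKO.

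The sequences at the start of these genes are shown because the genes moved together. RefSeq promoters (GRCm38.p6, 250 bases before to 50 after the start) were matched for 43 of the 52 genes, in 48 windows. Printed are the 6 genes with the smallest p that have an entry, each 5′ to 3′ on the gene's strand: Dnah5 chr15:28203516-28203815 (plus strand), Dnah11 chr12:118198994-118199293 (minus strand), Dnah10 chr5:124724835-124725134 (plus strand), Cfap52 chr11:67965593-67965892 (minus strand), Spag17 chr3:99885167-99885466 (plus strand), Dnai2 chr11:114727169-114727468 (plus strand). Capitals mark matches on either strand to GTTGCC, the core of the X-box read by RFX factors, to the longer form GTTGCCNNG that contains it, to the forkhead sequence TGTTTAC, or to the grainyhead sequence AACNGGTT. For Dnah5, Dnai2 and Cfap52 the start in the table lies inside the span of the gene given with its values.

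Dnah5: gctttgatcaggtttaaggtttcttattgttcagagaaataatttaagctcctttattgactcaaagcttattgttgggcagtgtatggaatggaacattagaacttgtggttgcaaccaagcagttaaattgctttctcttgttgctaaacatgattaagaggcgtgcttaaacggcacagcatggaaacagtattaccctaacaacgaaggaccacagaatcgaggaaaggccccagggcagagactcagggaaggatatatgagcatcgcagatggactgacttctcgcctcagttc
Dnah11: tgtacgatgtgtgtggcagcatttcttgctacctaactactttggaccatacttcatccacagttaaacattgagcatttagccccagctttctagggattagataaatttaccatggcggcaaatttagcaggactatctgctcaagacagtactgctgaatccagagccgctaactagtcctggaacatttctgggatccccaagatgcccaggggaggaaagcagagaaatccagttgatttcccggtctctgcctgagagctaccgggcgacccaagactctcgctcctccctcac
Dnah10: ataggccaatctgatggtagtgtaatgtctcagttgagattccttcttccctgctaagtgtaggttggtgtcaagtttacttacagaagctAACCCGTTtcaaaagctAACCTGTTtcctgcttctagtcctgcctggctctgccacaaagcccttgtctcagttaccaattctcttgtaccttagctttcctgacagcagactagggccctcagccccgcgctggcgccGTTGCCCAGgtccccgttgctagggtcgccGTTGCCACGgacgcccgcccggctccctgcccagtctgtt
Cfap52: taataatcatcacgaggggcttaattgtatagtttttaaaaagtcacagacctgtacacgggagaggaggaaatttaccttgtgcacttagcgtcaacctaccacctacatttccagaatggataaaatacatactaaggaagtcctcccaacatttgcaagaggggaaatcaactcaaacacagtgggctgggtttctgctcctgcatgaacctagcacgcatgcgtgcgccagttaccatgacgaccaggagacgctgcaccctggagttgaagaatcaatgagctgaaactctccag
Spag17: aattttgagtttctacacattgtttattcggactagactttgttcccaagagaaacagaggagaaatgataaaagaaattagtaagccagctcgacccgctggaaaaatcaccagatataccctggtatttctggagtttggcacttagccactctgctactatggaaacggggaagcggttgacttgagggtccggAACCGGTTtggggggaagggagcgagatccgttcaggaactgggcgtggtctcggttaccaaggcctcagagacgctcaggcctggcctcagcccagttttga
Dnai2: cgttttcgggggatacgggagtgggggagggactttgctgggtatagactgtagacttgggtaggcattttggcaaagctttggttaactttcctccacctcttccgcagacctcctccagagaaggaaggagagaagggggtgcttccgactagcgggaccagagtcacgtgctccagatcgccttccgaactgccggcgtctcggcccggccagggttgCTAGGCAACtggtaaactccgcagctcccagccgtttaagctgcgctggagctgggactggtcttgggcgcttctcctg

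Dnah10 held the longer X-box form from -20 to -12 and from 11 to 19, counted from 1 at the start, and grainyhead letters from -159 to -152 and from -142 to -135. In Spag17 the match was AACCGGTT from -53 to -46, and in Dnai2 it was the longer X-box form on the other strand from -29 to -21. The windows of Dnah5, Dnah11 and Cfap52 held none of these letters. Across all windows of the 52 genes, 20 of 48 (41.7%) held GTTGCC, against 12.5% of all 32851 promoters in the table, and 15 of 48 (31.2%) held the longer form, against 5.00%. Among the windows of the 24 genes called lower, 7 of 23 (30.4%) held GTTGCC. The forkhead sequence was in 2 of 48 (4.17%, against 3.65%) and the grainyhead sequence in 3 of 48 (6.25%, against 2.09%), those of Spag17, Dnah10 and Spef2. A match is a run of letters and not a shown binding site.

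Outer dynein arm genes fell in each member tested. Of 5 genes, 4 were tested and all 4 fell, with a median of 36.8% of control. Dnah5, an outer arm heavy chain whose loss is a known cause of primary ciliary dyskinesia (Entrez 110082, chromosome 15, 28154854 to 28472045, mm10), stood at 7.32, 4.99 and 5.68 CPM in controls and 2.47, 1.93 and 2.01 CPM in Grhl2_cKO. All 3 knockout values were below the lowest control (log2 fold change -1.48 ± 0.21 SE, n = 3 samples in each group; edgeR adjusted p = 0.00373). Dnah5 lies 8.8 Mb from Grhl2 on the same chromosome. Of the 52 genes, Spef2, also called lower, and Lrrc6, not called, lie on it too, at 27.5 and 29.0 Mb. Whether DNA linked to the null allele plays a part was not tested. Dnah11, a heavy chain of the proximal part of the cilium, stood at 27.95, 20.64 and 26.78 against 14.01, 13.68 and 10.72 CPM. It fell to 51.0% of control (edgeR adjusted p = 0.00481), with the smallest change of the class. Dnah9, a heavy chain of the distal part, stood at 7.62, 5.54 and 5.42 against 3.31, 2.12 and 1.54 CPM, 37.8% of control (edgeR adjusted p = 0.0181). Dnai2, an intermediate chain (Entrez 432611, chromosome 11, 114721341 to 114757889), stood at 8.0, 4.08 and 4.97 against 2.34, 0.96 and 1.18 CPM, the largest fall of the class (log2 fold change -1.90 ± 0.35 SE; edgeR adjusted p = 0.0156). Dnai1, its partner, was not tested, with counts of 17, 15 and 5 against 7, 3 and 3. Without Grhl2_cKO replicate 5 or 10 the calls of Dnah5 and Dnah11 were left, 2 in each fit.

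Inner dynein arm genes fell in part. Of 10 genes tested 7 fell, and the median was 34.3% of control. Dnah10, a heavy chain of an inner arm (Entrez 56087, chromosome 5, 124725085 to 124834308), went from 14.72, 8.28 and 10.97 to 4.63, 2.57 and 2.49 CPM (log2 fold change -1.80 ± 0.27 SE, n = 3 per group; edgeR adjusted p = 0.0058). The highest knockout library, replicate 1, was still below the lowest control. Cfap44, which encodes a protein of the tether of that arm, stood at 9.79, 7.00 and 6.20 against 4.15, 2.50 and 2.66 CPM, or 40.9% of control (edgeR adjusted p = 0.0165). Dnah6, a single-headed heavy chain, stood at 9.04, 4.44 and 5.68 against 2.83, 1.61 and 1.72 CPM, or 32.5% (edgeR adjusted p = 0.0184). Dnah3, another, stood at 8.52, 4.75 and 4.90 against 2.71, 0.90 and 1.54 CPM, or 28.8% (edgeR adjusted p = 0.0221). In each of these genes Grhl2_cKO replicate 1 was the highest knockout library and no groups overlapped. Dnah12, a heavy chain, the light chain gene Dnali1 and Cfap57 were also called, at 36.2%, 32.4% and 31.2% of control. Cfap57 had counts of 33, 27 and 23 against 12, 6 and 10, so it passed the filter on low counts only through the controls. The remaining 3 were nearer to control and did not pass: Dnah2, Dnah7b and Dnah1 were at 67.1%, 76.9% and 79.1% (edgeR adjusted p = 0.132, 0.334 and 0.616). Dnah7b has the close paralogs Dnah7a and Dnah7c, so its counts are uncertain. The class had 5 calls without control replicate 1, 4 without control replicate 3 and 1 without Grhl2_cKO replicate 5 or without Grhl2_cKO replicate 10.

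Factors that assemble the arms differed among themselves. Of 4 tested, 1 fell, and the median was 51.4% of control. Zmynd10, which works in the maturation of dynein heavy chains (Entrez 114602, chromosome 9, 107546872 to 107551321), stood at 15.77, 9.62 and 9.74 against 6.85, 4.24 and 3.97 CPM, 43.2% of control (edgeR adjusted p = 0.0269). The groups did not overlap, but the call was lost without Grhl2_cKO replicate 5 and without Grhl2_cKO replicate 10 (range over its alternatives 5.85e-05 to 0.109). Dnaaf3, another assembly factor, stood at 9.19, 8.34 and 8.84 against 9.44, 8.80 and 8.05 CPM, 99.8% of control (edgeR adjusted p = 0.998). Its groups overlapped. Dnaaf3 shares 86 exon bases with Tnni3, a heart muscle gene, on the same strand, and Tnni3 stood at 3.29, 2.44 and 2.65 against 5.65, 1.86 and 1.60 CPM. The part of Tnni3 in the Dnaaf3 counts was not tested. Dnaaf1, another such factor, stood at 2.47, 1.10 and 0.84 against 0.60, 0.64 and 0.53 CPM without passing (41.7% of control; edgeR adjusted p = 0.21), and Lrrc6 values overlapped between groups (61.2%; edgeR adjusted p = 0.625).

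Of the ruler and nexin link genes, 1 of 4 tested fell, and the median was 56.7% of control. CCDC39 and CCDC40 form the ruler that sets the spacing of inner arms and spokes along the doublet. Ccdc40 (Entrez 207607, chromosome 11, 119228490 to 119265248) stood at 14.65, 9.68 and 9.23 against 6.85, 4.30 and 4.86 CPM, 48.0% of control (edgeR adjusted p = 0.0289). Its partner Ccdc39 stood at 16.14, 11.20 and 11.68 against 9.98, 8.93 and 7.11 CPM, 66.9% of control, and did not pass (edgeR adjusted p = 0.125). No knockout library reached a control library in either gene. Of the exon bases of Ccdc39, 16.9% are shared with Ttc14 on the opposite strand, so its counts are uncertain. Ccdc113 was at 33.9% of control without passing (edgeR adjusted p = 0.0531; called with DESeq2, with robust quasi-likelihood and without Grhl2_cKO replicate 1; 0.0125 to 0.162 over its alternatives), and the nexin link gene Drc1 was at 67.9% (edgeR adjusted p = 0.331). The Ccdc40 call was lost without control replicate 1 or 3 and without Grhl2_cKO replicate 5 or 10 (0.000292 to 0.114 over its alternatives), which left 0 calls in the class, and 2 genes were called without Grhl2_cKO replicate 1.

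Radial spoke genes fell in 3 of 5, with a median of 38.8% of control. Rsph4a, which encodes a spoke head protein (Entrez 212892, chromosome 10, 33905111 to 33916021), stood at 7.17, 5.18 and 4.58 against 2.65, 1.54 and 1.72 CPM (log2 fold change -1.50 ± 0.25 SE, n = 3 per group; edgeR adjusted p = 0.0102). Cfap206, of the spoke base, stood at 9.27, 5.66 and 5.42 against 3.49, 2.25 and 2.07 CPM, 38.8% of control (edgeR adjusted p = 0.0213). Rsph1, also of the spoke head, stood at 8.89, 5.72 and 4.26 against 2.89, 1.28 and 2.25 CPM, 34.6% of control (edgeR adjusted p = 0.0291). Groups were separate in these 3 genes. Another head gene, Rsph9, overlapped between groups, at 7.77, 8.10 and 5.42 against 6.85, 4.30 and 5.57 CPM (78.8% of control; edgeR adjusted p = 0.598). Rsph9 is the 1 spoke gene in which control replicate 1 was not the highest control. The adenylate kinase gene Ak8 was at 47.0% without passing (edgeR adjusted p = 0.119). Of the 3 calls, 1 was left without Grhl2_cKO replicate 5 and 0 without Grhl2_cKO replicate 10.

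Central pair genes held the largest fold change of the 47 genes tested. Of 12 genes 9 were tested and 5 fell, with a median of 38.0% of control. Cfap65, a gene of a central pair projection (Entrez 241116, chromosome 1, 74902071 to 74935626), stood at 14.80, 8.58 and 7.23 against 3.25, 1.73 and 2.66 CPM (log2 fold change -1.98 ± 0.30 SE, n = 3 per group; edgeR adjusted p = 0.00592). Spag17 (Entrez 74362, chromosome 3, 99885417 to 100143322), which encodes a large protein of the same apparatus, stood at 11.13, 7.73 and 8.71 against 3.61, 3.47 and 1.42 CPM, 30.9% of control (edgeR adjusted p = 0.0102). Both were separate between groups, and Spag17 was lowest in Grhl2_cKO replicate 10. Spag6l stood at 8.52, 4.51 and 5.10 against 2.65, 2.12 and 1.95 CPM, 37.5% of control (edgeR adjusted p = 0.0182), and Cfap70 at 3.96, 3.23 and 2.32 against 1.44, 1.35 and 1.36 CPM, 44.1% (edgeR adjusted p = 0.0293). Spef2 stood at 2.32, 1.46 and 0.97 against 0.48, 0.45 and 0.36 CPM (27.9%; edgeR adjusted p = 0.0383). Its counts were 31, 24 and 15 against 8, 7 and 6, so it passed the filter on low counts only through the controls. The Spef2 call was kept in 10 of the 15 alternatives that tested it. The knockout values of Cfap70 and Spef2 were close together while their control values were spread.

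Hydin, whose giant protein is part of the central pair, was at 38.0% of control and did not pass (6.73, 3.59 and 2.71 against 2.53, 0.71 and 1.60 CPM; edgeR adjusted p = 0.132; called with DESeq2; 0.0155 to 0.318 over its alternatives). Ak7, at 41.6%, was likewise called with DESeq2 only (edgeR adjusted p = 0.0926; 0.0257 to 0.277 over its alternatives). Cfap54 and Cfap69 were at 62.1% and 71.3% without passing. Cfap46, Cfap221 and Spag16 were too low for the test. Spag16 had counts of 12, 14 and 9 against 2, 3 and 3, and was called when no filter on low counts was used (log2 fold change -2.19; edgeR adjusted p = 0.0399). Cfap46 had counts of 12, 6 and 6 against 5, 5 and 3, and Cfap221 of 17, 5 and 6 against 5, 3 and 0. The class had 3 calls without control replicate 1, without control replicate 3 or without Grhl2_cKO replicate 1, and 2 without Grhl2_cKO replicate 5 or without Grhl2_cKO replicate 10.

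Tektins and proteins of the doublet lumen fell in 3 of 7, with a median of 43.7% of control. Cfap52 (Entrez 71860, chromosome 11, 67924806 to 67965669), a microtubule inner protein gene, stood at 6.65, 5.54 and 5.36 against 3.13, 2.12 and 2.37 CPM (log2 fold change -1.20 ± 0.19 SE, n = 3 per group; edgeR adjusted p = 0.00833). Cfap126, or Flattop, stood at 5.31, 5.30 and 3.61 against 2.53, 1.54 and 1.95 CPM, 42.6% of control (edgeR adjusted p = 0.02). Tekt1, a tektin filament gene, stood at 8.82, 6.76 and 6.71 against 4.33, 1.99 and 2.96 CPM, 42.0% (edgeR adjusted p = 0.0225). Each of the 3 was lower in every knockout library than in every control. Tekt4 was at 41.2% and Cfap45 at 52.5%, just outside the threshold (edgeR adjusted p = 0.0555 and 0.0559), and both were called with DESeq2 and robust quasi-likelihood, Cfap45 also without control replicate 7 and without Grhl2_cKO replicate 1 (0.021 to 0.187 and 0.0081 to 0.195 over their alternatives). Tekt2 and Cfap53 overlapped between groups, at 70.0% and 71.5% (edgeR adjusted p = 0.752 and 0.697). Without control replicate 3, Grhl2_cKO replicate 5 or Grhl2_cKO replicate 10, 1 call was left in each fit.

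**Figure D3:**
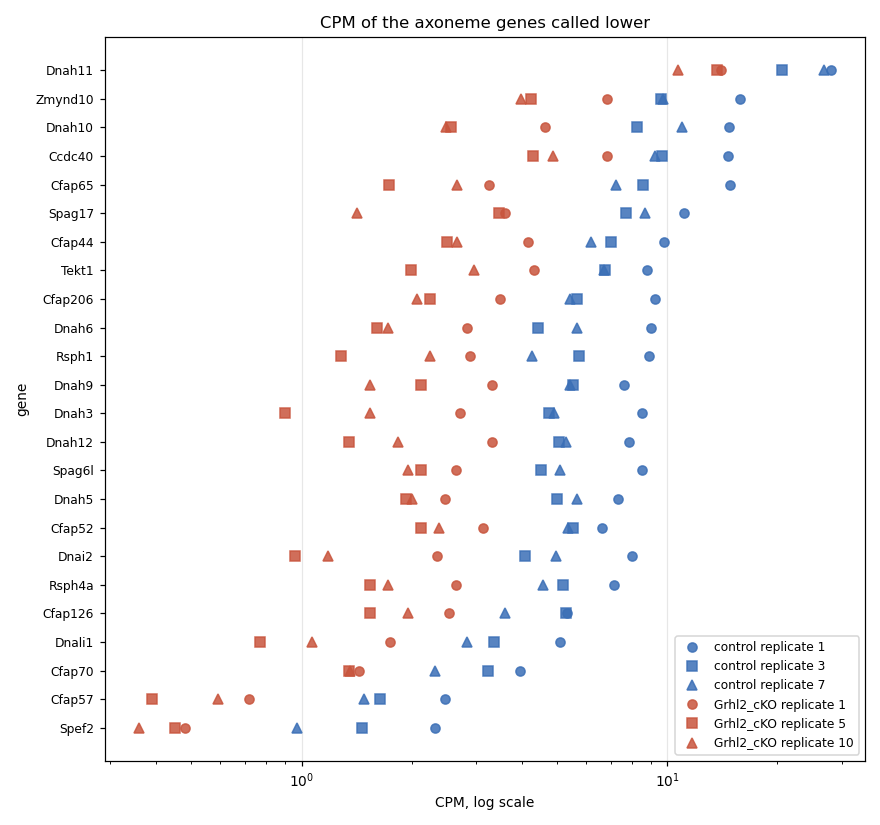
CPM on a log axis of the 24 axoneme genes called lower, with 1 symbol per library (blue control, red Grhl2_cKO). In each row the 3 Grhl2_cKO libraries lie below the 3 controls, and Grhl2_cKO replicate 1 is the knockout library nearest to the controls in each row.

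The other 5 genes encode proteins that accompany the axoneme, and none was called. Tppp3, which encodes a tubulin polymerization promoting protein, had the highest level per length of the 52, at 20.72 CPM per kilobase in controls and 21.98 in Grhl2_cKO. Its CPM were 27.87, 18.02 and 17.75 against 26.88, 18.43 and 22.20, so the groups overlapped (log2 fold change 0.09 ± 0.19 SE; edgeR adjusted p = 0.951). Dynlrb2, a roadblock-type dynein light chain gene, was the next highest per length, at 14.95 CPM per kilobase in controls and 7.73 in Grhl2_cKO. Its CPM of 9.57, 6.70 and 6.84 against 5.41, 3.21 and 3.32 did not overlap, and it was just outside the threshold (52.0% of control; edgeR adjusted p = 0.0565). It was called without a filter, with DESeq2, with robust quasi-likelihood and without Grhl2_cKO replicate 1 (adjusted p 0.00763 to 0.196 over its alternatives). Ccdc78, of the deuterosome pathway that multiplies centrioles, and Cdhr3, a cadherin-related surface protein gene, overlapped between groups (69.2% and 64.4%; edgeR adjusted p = 0.615 and 0.704). Sntn, which encodes a protein of the ciliary tip, had counts of 3, 1 and 1 in controls and 0 in each Grhl2_cKO library, where a count of 0 allows up to 0.174 to 0.194 CPM before normalization, for counting error only.

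Compared per length, the levels of the axoneme genes in controls spanned 0.09 CPM per kilobase for Sntn to 20.72 for Tppp3. Of the 10 dynein heavy chains among the 52, Dnah11 was highest per length at 1.79 and Dnah1 lowest at 0.31 CPM per kilobase. Across the 47 genes tested, the log2 fold change had a Spearman rho of 0.21 with the control level per length, -0.26 with gene length and 0.07 with control CPM. These are descriptions over genes that share the same 6 libraries. Of the 47 genes tested, the 11 whose groups overlapped were Dnah1, Dnah7b, Lrrc6, Dnaaf3, Drc1, Rsph9, Tekt2, Cfap53, Ccdc78, Tppp3 and Cdhr3, which come from all classes but the outer arm and the central pair. Another 12 of the 47 had no overlap between groups but did not pass the test.

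Some axonemal genes outside the 52 fell as well. Of 65 listed, 62 were matched and 51 tested: 11 fell, none rose, 40 were not called, and the median was 65.5% of control. Among all genes tested 2.39% were called lower. Groups did not overlap, with Grhl2_cKO lower, for 28 of 51, against 9.89% of all genes tested. This list too was chosen with earlier results of these data known. Lrrc23, a radial spoke gene, stood at 32.51, 18.63 and 17.88 against 9.80, 6.61 and 6.34 CPM, 33.1% of control (edgeR adjusted p = 0.00642). Efhb, a microtubule inner protein gene, stood at 1.87, 1.70 and 2.0 against 0.36, 0.39 and 0.59 CPM, 24.5% (edgeR adjusted p = 0.00575). Its Grhl2_cKO counts were only 6, 6 and 10, so it passed the filter on low counts only through the controls. Odad2 and Odad4, of the outer arm docking complex, were at 24.0% and 52.0% (edgeR adjusted p = 0.0155 and 0.037). Odad2 had Grhl2_cKO counts of 12, 4 and 9 and also passed that filter only through the controls. Nme5, Cfap74 and Ccdc146 were called at 50.5%, 45.1% and 22.2% of control. Ccdc146, with Grhl2_cKO counts of 14, 10 and 10, likewise passed the filter only through the controls. The Ccdc146 call was kept in 9 of 16 alternatives. It was lost with limma-voom, with robust quasi-likelihood, with sex as a covariate, without control replicate 3 and without Grhl2_cKO replicate 1, 5 or 10. The count of 11 was 7 with limma-voom, 5 with sex as a covariate, 5, 3 and 6 without control replicates 1, 3 and 7, and 3 and 2 without Grhl2_cKO replicates 5 and 10.

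Genes that act before the axoneme is built differed in how they moved. Of 13 ciliated cell fate regulators, 8 fell and none rose, where 2.39% of all genes tested were called lower and 1.23% higher. Foxj1 stood at 67.7, 56.5 and 52.14 against 34.69, 22.03 and 20.31 CPM, 43.7% of control (edgeR adjusted p = 0.00597). Mcidas, a regulator of the multiciliated programme, was at 48.5% (edgeR adjusted p = 0.00866). The factors Rfx2 and Rfx3 were at 99.3% and 97.8% and Gmnc at 91.4%, none past the test (edgeR adjusted p = 0.993, 0.968 and 0.876). The summed axoneme level per CPM of Foxj1 was 5.83, 4.79 and 5.15 in controls and 5.71, 6.62 and 7.15 in Grhl2_cKO, with overlap between groups. Of 26 genes of intraflagellar transport and the basal body, which serve primary cilia as well, none was called by edgeR, by DESeq2 or in any other of the 16 alternatives. At the shares over all genes tested, few calls would be found among 26 genes. The median was 95.6% of control and 19 of 26 lay below 0. Groups did not overlap, with Grhl2_cKO lower, for 5 of 26, against 9.89% of all genes tested. Ift22, Ift88, Bbs5 and Pcm1, all lower, were the 4 with an unadjusted edgeR p under 0.05. The share over all genes was not computed for that count. The sum of 15 airway secretory markers was 781.5, 699.7 and 632.4 against 461.5, 295.5 and 321.5 CPM. Of the 11 markers tested 4 were called lower, against the same 2.39% of all genes tested. Their part in the axoneme result was not tested.

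**Figure D4:**
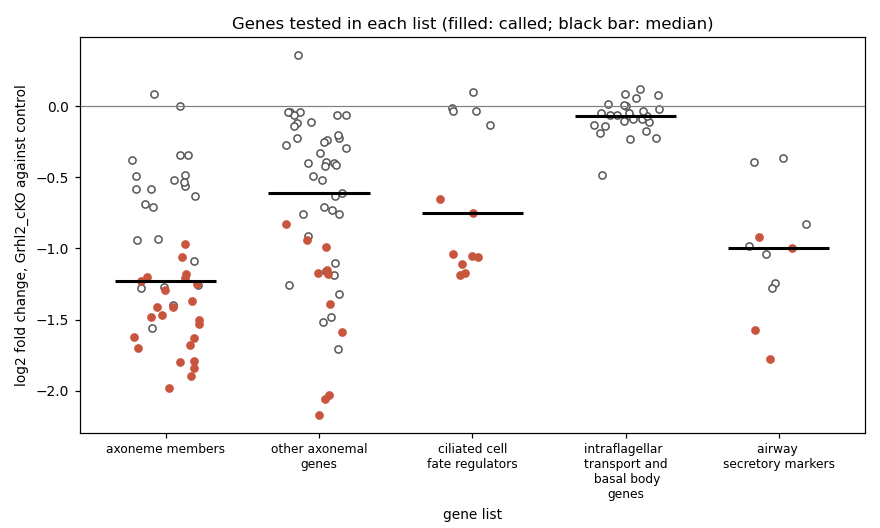
Log2 fold change of each gene tested in 5 lists, with called genes filled and the median as a black bar. Axoneme genes have a median of -1.23. The 26 genes of intraflagellar transport and the basal body have a median of -0.06. None of these 26 is called, where 2.39% of all genes tested were called lower.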

How the data were processed

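RNA from 6 sorted samples was measured with stranded mRNA-seq libraries, per the labels' protocols. The authors deposited raw counts per Entrez gene and a gene length. Per the submitters' processing notes, bcl2fastq 2.17.1.14, featureCounts, edgeR 3.16.5, limma 3.30.12 and mm10 were used. Aligner, strand setting and multi-mapping rule: not given in the sources used here. GENCODE M21 places exon bases of another gene in the exons of 20 of the 52 genes (over 10% in 7: Ccdc39, Ccdc78, Dnaaf1, Dnaaf3, Dnah3, Tekt2 and Zmynd10), so their counts are uncertain. Symbols and positions came from a RefSeq table (GRCm38.p6), which matched 25275 of 27179 rows and 99.19% of counts.

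Counts were tested in R 4.3.3 with edgeR 4.0.16 across all genes: filterByExpr (minimum count 10, minimum total 15), TMM (0.981 to 1.009), glmQLFit with bias-adjusted deviances, no covariate, Benjamini-Hochberg adjustment and a threshold of 0.05. Each SE is |log2 fold change| divided by sqrt(F). Replicates differed by more than counting noise (chi-square per degree of freedom 8.16 to 13.69).

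Members, classes and lists were chosen with earlier results of these data known. Per-library values are given for called members, up to 4 per class by p, and for others described after their values were seen. From the other axonemal genes, called ones with the smallest p, at most 8, are named, except 1 that is not reported here. In that list of 65, 62 were matched, 11 of them by former symbols. The 16 alternatives used other scalings (total-count, RLE, upper-quartile), another filter (none, or 1 CPM in 3 libraries), DESeq2 1.42.0, limma-voom (limma 3.58.1), legacy or robust quasi-likelihood, a sex covariate, or 5 of the 6 libraries; the legacy fit, the default of this edgeR version, was added after seeing the data, when the bias-adjusted form was taken as the main one to match the earlier results.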

Additional observations from a re-analysis of the deposited data

How the results depend on the processing

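No paired analysis was possible because the groups share only replicate number 1. The number of axoneme genes called lower, 24, ranged from 6 to 25 when 1 library was left out (lowest without Grhl2_cKO replicates 10 and 5) and from 23 to 30 under the other alternatives, with 30 by DESeq2. None was called higher in any fit. Over all genes, 355 lower and 182 higher calls became 166 to 338 and 78 to 221 when 1 library was left out. Among the 24, calls were lost in fits without 1 library: 18 without Grhl2_cKO replicate 10, 17 without Grhl2_cKO replicate 5, 9 and 6 without control replicates 3 and 1, and 2 without Grhl2_cKO replicate 1. Spef2, Cdhr3, Cfap53, Dnaaf1, Lrrc6 and Tekt2 were not tested under the filter of 1 CPM in 3 libraries. Of the 47 genes tested, 44 had a log2 fold change below 0 in every alternative that tested them. Leaving out 1 library moved Tekt2 between -0.74 and 0.02, above 0 without control replicate 1. It moved Tppp3 between -0.06 and 0.34: -0.02 without either control replicate 3 or 7, and -0.06 without Grhl2_cKO replicate 1. The cause of these changes was not tested. Counts of 20 or fewer per library limit what can be called. They occur in Spag16, Cfap46, Cfap221, Dnai1 and Sntn, and in the Grhl2_cKO libraries of Spef2, Cfap57 and Dnaaf1, among others.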
